A study of Mus musculus with 4 samples.

Results

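Small nucleolar RNAs (snoRNAs) and small Cajal body RNAs were followed in mouse J774M cells. The labels give this line the cell type of myeloid-derived suppressor cells, a population of immature myeloid cells with a known ability to hold back T cells. Members were all genes whose symbol began with Snora, Snord or Scarna and a number, with 1 probe set per gene, and there were 118 of them among 26277 genes tested. They comprised 74 box C/D RNAs (Snord), 35 box H/ACA RNAs (Snora) and 9 Cajal body RNAs (Scarna). RNA came from 2 samples titled NC06, treated with 10 uM NC06 for 24 h, and from 2 titled control. The labels attach the same NC06 treatment text to all 4 samples, so the groups rest on the titles, and no source used here says what the control cells received instead. NC06 is an inhibitor of neutral ceramidase, an enzyme that breaks ceramide down to sphingosine. Total RNA was labelled for a whole-transcript array, 1 array per sample, and each value is the deposited log2 signal of a probe set.

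Box C/D and box H/ACA RNAs are short non-coding RNAs of the nucleolus, most of which are cut from introns of host genes. Each pairs with a target and guides a bound protein complex to it. Box C/D RNAs guide methylation of ribose by fibrillarin, and box H/ACA RNAs guide the change of uridine into pseudouridine by dyskerin, mainly on ribosomal RNA. A few, such as U8 (Snord118), U14 (Snord14), U22 (Snord22) and U17 (Snora73), are needed for cutting the ribosomal precursor. Cajal body RNAs use the same box elements and direct modification of spliceosomal RNAs.

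Box C/D RNAs were mostly a little higher in NC06 cells and box H/ACA RNAs mostly lower, but 0 of the 118 members passed the adjusted threshold of 0.05, and the 2 arrays of a group differed more for box H/ACA RNAs than the groups did. The median change of the 74 box C/D RNAs was 0.11 log2, with 51 higher and 23 lower. That of the 35 box H/ACA RNAs was -0.20, with 7 higher and 28 lower. Over all genes the median change was 0.002. The best adjusted p among members was 0.168 (limma's moderated test, Benjamini-Hochberg adjustment over all genes), and 0.0% of all genes were called. Nothing in the labels says whether the 2 samples of a group were grown separately, and the p-values therefore reflect sample-to-sample spread that may be technical. Precision is limited by the 2 arrays per group. In RNA from whole cultures, fewer cells with an RNA and less of it per cell cannot be told apart.

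Over all genes the 4 arrays were alike, but box H/ACA RNAs differed between the arrays of a group, as given below. The median signal of an array was 4.75 and 4.74 log2 in NC06 cells, against 4.68 and 4.67 in control cells, and arrays correlated with each other across genes at 0.993 to 0.995. All 9 myeloid markers were above the median signal of tested genes in the brighter group. They included Csf1r, the macrophage growth factor receptor, and Spi1, the myeloid transcription factor PU.1. The mean signal of the 9 was 9.70 and 9.68 in NC06 cells, against 9.09 and 9.14 in control cells. Their changes were uneven, from -0.44 log2 for Ly6c2 to 1.38 for Ly6g, with 0.08 for Csf1r and 0.05 for Spi1. Markers of B cells averaged 4.37 and 4.47, against 4.51 and 4.28, and markers of T cells 4.38 and 4.43, against 4.45 and 4.47.

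The sequences of most members were not analysed here, but 4 probe sets were listed by the platform annotation under both a member and a miRNA whose hairpin lies almost or fully within that member's gene. They are shown because the probe set cannot separate the pair, and they are given as RNA 5′ to 3′ from RefSeq, build GRCm38.p6, with the mature miRNA arms in capitals. In Scarna3a the hairpin is at chr1:159340358-159340423 on the plus strand, in Scarna3b at chr12:80391613-80391677 on the minus strand, in Scarna13 at chr12:105031077-105031141 on the minus strand and in Snora36b at chr1:185242975-185243043 on the plus strand.
Mir1843b in Scarna3a: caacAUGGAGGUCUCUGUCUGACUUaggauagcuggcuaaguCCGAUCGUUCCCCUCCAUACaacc
Mir1843a in Scarna3b: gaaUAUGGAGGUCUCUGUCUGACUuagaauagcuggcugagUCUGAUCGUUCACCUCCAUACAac
Mir3069 in Scarna13: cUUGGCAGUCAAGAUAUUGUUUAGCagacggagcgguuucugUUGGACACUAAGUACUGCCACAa
Mir664 in Snora36b: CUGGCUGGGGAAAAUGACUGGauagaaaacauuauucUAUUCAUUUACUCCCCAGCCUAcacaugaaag
The hairpin of Mir664 has 64 of its 69 bases within the RefSeq span of Snora36b, that of Mir1843a has 64 of 65 within Scarna3b, and the others lie wholly within their member. For these 4 probe sets, signal from the guide RNA and from the miRNA precursor cannot be told apart. Their changes were 0.37 log2 for Scarna3a, 0.36 for Scarna3b, -0.17 for Scarna13 and -0.25 for Snora36b, and none passed.

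Signals of members were high for this array. The median of the members' mean signals was 8.59 log2, and all but 8 members had a group mean at or above the median of all tested genes, 4.99. The 8 dim members were Snord64, Snord107, Snord90, Snord98, Snord85, Snord96a, Snord116l1 and Snora36b. The dimmest, Snord64, read 2.34 and 1.53 log2 in NC06 cells, against 1.46 and 1.78 in control cells. Box C/D RNAs had a median mean signal of 8.89, box H/ACA RNAs 8.24 and Cajal body RNAs 7.91. Levels of different probe sets also depend on the probes, so these medians do not rank the RNAs by abundance.

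**Figure D1:**
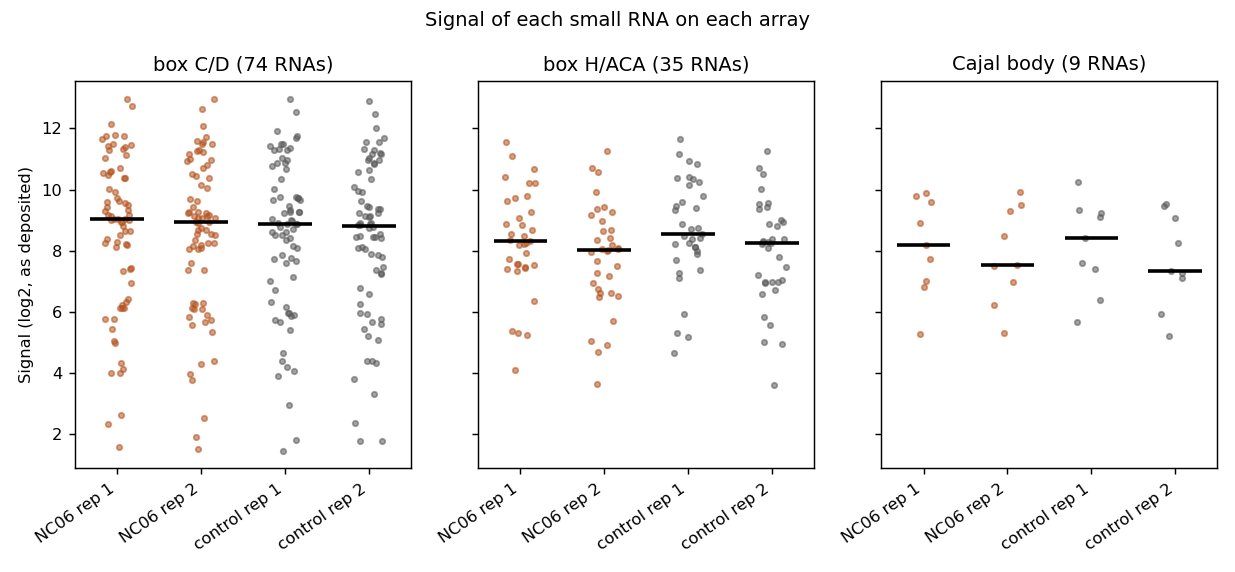
Signal of each member on each array in log2 units, by class; each point is 1 RNA and each black bar the median of the class on that array. The box H/ACA median was 8.33 and 8.03 on the NC06 arrays, against 8.54 and 8.25 on the control arrays, while the box C/D medians lay between 8.80 and 9.04.

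The brightest box C/D members were Snord100, Snord32a, Snord82, Snord60 and Snord47. Snord100 read 12.97 and 12.95 log2 in NC06 cells, against 12.95 and 12.91 in control cells. The platform annotation lists its probe set under Snora33 and the authors' deposited table under Snord100, and the deposited name was used. Snord82 from nucleolin (Ncl) read 12.15 and 12.07, against 11.91 and 12.01. These 2 RNAs had both NC06 arrays above both control arrays by small margins, with changes of 0.03 (SE 0.076) and 0.16 (SE 0.086) log2 that did not pass. The change of Snord100 was -0.003 with quantile normalization and -0.020 with arrays centred on their medians. Snord60 had a change of 0.04 and Snord47, from an intron of Gas5, one of 0.11, and their groups overlapped.

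Among box C/D RNAs the arrays of the 2 groups separated upwards more often than among all genes. The 2 NC06 arrays exceeded the 2 control arrays in 31 of 74, or 41.9%, against 23.3% of all genes and 25.6% of those that were not dim. They were the lower arrays in 2 of 74, against 24.4% and 35.2%. At an unadjusted p under 0.05, 14 were higher, or 18.9%, against 7.79% of all genes, and 1 was lower, against 7.52%. In either direction that made 18 of the 118 members, or 15.3%, which is also the share of all genes, 15.3%. Leaving out 1 array changed these numbers. The count of 14 was 9 without control replicate 1 and 4 without NC06 replicate 1, and the class median of 0.11 log2 was 0.046 without control replicate 2. With quantile normalization the median was 0.12, and with arrays centred on their medians 0.059.

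Snord111, which lies in the splicing factor gene Sf3b3, had the highest moderated t of all members. It read 9.30 and 9.22 log2 in NC06 cells, against 8.77 and 8.73 in control cells. All NC06 values lay above all control values, and the arrays of each group agreed within 0.1 log2. The change was 0.51 log2 (SE 0.080, 95% interval from 0.30 to 0.73, 1.43-fold), at an adjusted p of 0.168 in limma. Its host Sf3b3 had a change of -0.029 log2 (SE 0.079).

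Snord55 read 11.28 and 11.26 log2 in NC06 cells, against 10.88 and 10.87 in control cells. The 2 groups stood clearly apart for this bright RNA, at 0.40 log2 (SE 0.075, 95% interval from 0.19 to 0.60). Its limma adjusted p was 0.204.

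Snord88c read 8.21 and 8.05 log2 in NC06 cells, against 7.60 and 7.36 in control cells. Its change of 0.65 log2 (SE 0.12, 1.57-fold) was accompanied by 0.38 (SE 0.14) for Snord88a, whose gene lies within the same host span. Neither passed, at limma adjusted p-values of 0.204 and 0.317. The host, 2410002F23Rik, had a change of 0.11 (SE 0.079).

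Snord57 had the largest positive change of the members. It read 10.71 and 10.51 log2 in NC06 cells, against 9.74 and 10.08 in control cells, a change of 0.70 log2 (SE 0.15, 1.62-fold, limma adjusted p 0.223). The groups did not overlap, although the 2 control arrays differed by 0.34 log2. Its host Nop56 encodes a core protein of box C/D particles, and the platform annotation lists Nop56 on the same probe set. A separate probe set of Nop56 had a change of -0.051 (SE 0.077), and Snord110, also within Nop56, had one of 0.16 (SE 0.079).

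The other box C/D RNAs among the 10 members with the highest moderated t were Snord53, Snord91a, Snord34 and Snord71. Their changes were 0.41, 0.64, 0.33 and 0.37 log2, at limma adjusted p-values from 0.236 to 0.267. In each of these RNAs the groups did not overlap. Snord91a was the dimmest of them, averaging 5.17 ± 0.24 log2 in NC06 cells and 4.53 ± 0.18 in control cells (SD, n = 2 each).

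**Figure D2:**
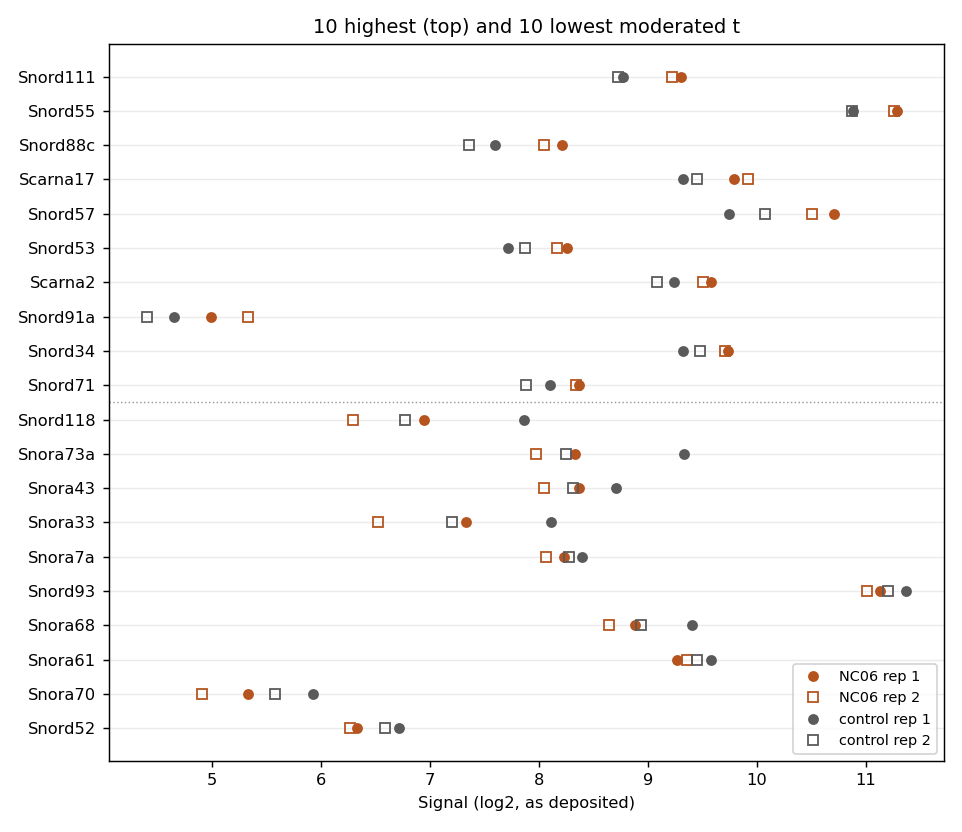
Signal in log2 units of the 10 members with the highest (top) and the 10 with the lowest moderated t; filled circles are replicate 1 and open squares replicate 2, in orange for NC06 and grey for control. In the upper 10 the NC06 symbols lie right of the control symbols, while in the lower 10 several RNAs, such as Snord118 and Snora73a, show wider gaps between the 2 arrays of a group than between the groups.

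Members in the introns of Rpl13a, a ribosomal protein gene whose snoRNAs are known from mouse cells as mediators of lipid-induced and oxidative stress, were all on the higher side. Snord35a read 10.38 and 10.14 log2 in NC06 cells, against 9.65 and 9.91 in control cells. Snord34 read 9.74 and 9.71, against 9.32 and 9.48. Snord32a, one of the brightest members, read 12.73 and 12.62, against 12.54 and 12.49. The groups did not overlap in any of the 3, and the margin was smallest for Snord32a. Their changes were 0.48 (SE 0.14), 0.33 (SE 0.092) and 0.16 (SE 0.085) log2, and limma adjusted p-values were 0.27, 0.261 and 0.442. The platform annotation pairs the probe sets of Snord34 and Snord32a with Rpl13a itself. The only probe set naming Snord33, which the platform lists together with Mir5121 and Rpl13a, was not a member. It read 9.52 and 9.46, against 9.55 and 9.45.

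RNAs listed for processing of the ribosomal precursor had changes of both signs. U8, encoded by Snord118 and required for the large subunit, read 6.95 and 6.30 log2 in NC06 cells, against 7.86 and 6.77 in control cells. U22, encoded by Snord22 in Snhg1, read 11.47 and 10.45, against 11.76 and 10.97. In both RNAs replicate 1 stood well above replicate 2 in each group and the groups overlapped. The changes were -0.69 (SE 0.44) and -0.41 (SE 0.44) log2, that of Snord118 was -0.15 without control replicate 1 and -1.24 without control replicate 2, and that of Snord22 was 0.10 without NC06 replicate 2. U13, encoded by Snord13, read 10.49 and 11.16, against 11.03 and 10.85, a change of -0.11 that was 0.23 without NC06 replicate 1. The U14 gene Snord14a read 7.45 and 7.38, against 7.15 and 7.26, with its groups apart and a change of 0.21 (SE 0.087). Its copy Snord14e had a change of -0.098 that was 0.12 without NC06 replicate 1. No member of the group had an unadjusted p under 0.05, and no gene of the U3 group (Snord3) was among the members.

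The U17 RNAs Snora73a and Snora73b, which lie in Snhg3 and belong to the box H/ACA class, behaved alike. Snora73a read 8.33 and 7.97 log2 in NC06 cells, against 9.33 and 8.25 in control cells. Snora73b read 8.47 and 8.21, against 9.46 and 8.37. In both, control replicate 1 stood far above the other 3 arrays. Their changes of -0.64 (SE 0.39) and -0.58 (SE 0.39) log2 were -0.10 and -0.03 without that array. The 2 genes are near-identical copies, so that their probe sets may read the same RNA. The host Snhg3 had a change of -0.12 (SE 0.095), and it read 8.05 and 7.88, against 8.09 and 8.09.

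Of the lists of imprinted brain-type RNAs, Snord116l1, Snord64 and Snord107 were members, and all 3 were dim. Snord116l1 was represented by 16 probe sets with identical values, counted once, at 4.34 and 3.79 log2 in NC06 cells, against 4.39 and 4.32 in control cells. Snord107 read 1.60 and 1.92, against 1.82 and 1.79. None of the 3 separated the groups. Of the box C/D RNAs of Gas5 only Snord47 was a member, and of those of Snhg1 only Snord22.

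For box H/ACA RNAs the group difference was small beside the difference between arrays of 1 group. The 2 NC06 arrays were the lower ones in 6 of 35, or 17.1%, against 24.4% of all genes and 35.2% of those that were not dim. They were the higher ones in 1 of 35, against 23.3% and 25.6%. At an unadjusted p under 0.05, 1 was lower, Snora70, and 0 were higher, against 7.52% and 7.79% of all genes. The share that separated the groups downwards was thus below the background, although wide gaps between arrays of 1 group make such separation harder to reach. Within same-numbered pairs of arrays, in contrast, 23 of 35, or 65.7%, had a negative change in both pairs, against 31.3% of all genes. With the replicate number as a block, more of them were lower at an unadjusted p under 0.05 in limma than without it, as given in the closing section. The class median of -0.20 log2 was 0.15 without control replicate 1, -0.63 without control replicate 2, -0.47 without NC06 replicate 1 and -0.013 without NC06 replicate 2. Leaving out 1 array makes the groups unequal in arrays numbered 1 and 2, so these medians mix the gap between those arrays, given below, with the change. Quantile normalization gave -0.16 and centring on array medians -0.26. The count of 1 lower RNA was 10 without control replicate 2 and 0 without control replicate 1 or NC06 replicate 2.

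Snora70, in the ribosomal protein gene Rpl10, read 5.33 and 4.91 log2 in NC06 cells, against 5.93 and 5.58 in control cells. The groups did not overlap, at a change of -0.63 log2 (SE 0.20, 95% interval from -1.17 to -0.10), and the limma adjusted p was 0.284. The platform annotation lists Rpl10 and a further gene on its probe set. Snora61, Snora68 and Snora7a also separated the groups, with changes of -0.20 (SE 0.092), -0.41 (SE 0.19) and -0.19 (SE 0.10). On the box C/D side Snord52 had the lowest moderated t of all members. It read 6.34 and 6.27, against 6.72 and 6.59, a change of -0.35 (SE 0.089, limma adjusted p 0.243). Snord93 was at -0.22 (SE 0.10) with its groups apart.

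The brightest box H/ACA members were Snora62, Snora21, Snora52, Snora75 and Snora23. Snora62, in the ribosomal protein gene Rpsa, read 11.56 and 11.26 log2 in NC06 cells, against 11.67 and 11.26 in control cells. Snora75 in Ncl read 10.40 and 9.42, against 10.93 and 10.03. Snora21 in Rpl23 read 11.11 and 10.57, against 11.17 and 10.51. In these 3 RNAs replicate 1 was the higher array in both groups, and the groups overlapped. Their changes were -0.049 (SE 0.19), -0.57 (SE 0.45) and 0.003 (SE 0.30) log2, and those of Snora62 and Snora21 changed sign when single arrays were left out.

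The gap between arrays numbered 1 and 2 ran the same way in both groups for most box H/ACA RNAs. NC06 replicate 1 was above NC06 replicate 2 in 33 of 35, against 48.7% of all genes, by a median of 0.44 log2. Control replicate 1 was above control replicate 2 in 34 of 35, against 49.0% of all genes, by a median of 0.66. Both held in 32 of 35, against 24.4% of all genes. Among box C/D RNAs both held in 36 of 74, with median gaps of 0.11 and 0.081. Between the NC06 arrays the gap was widest in Snora34, at 10.20 and 8.68 log2 in NC06 cells, against 10.39 and 8.88 in control cells, and in Snora15, at 9.62 and 8.11, against 10.26 and 8.83. Between the control arrays it was widest in Snora31, at 7.56 and 6.61 in NC06 cells, against 8.54 and 6.72 in control cells. The median standard error of the change was 0.28 for box H/ACA RNAs, 0.13 for box C/D RNAs and 0.10 for all genes. Over all genes the gaps of the 2 groups correlated at 0.034, and over the 35 box H/ACA RNAs at 0.76, as a description across genes that share the same 4 arrays. No source used here says whether the numbers mark a shared preparation.

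**Figure D3:**
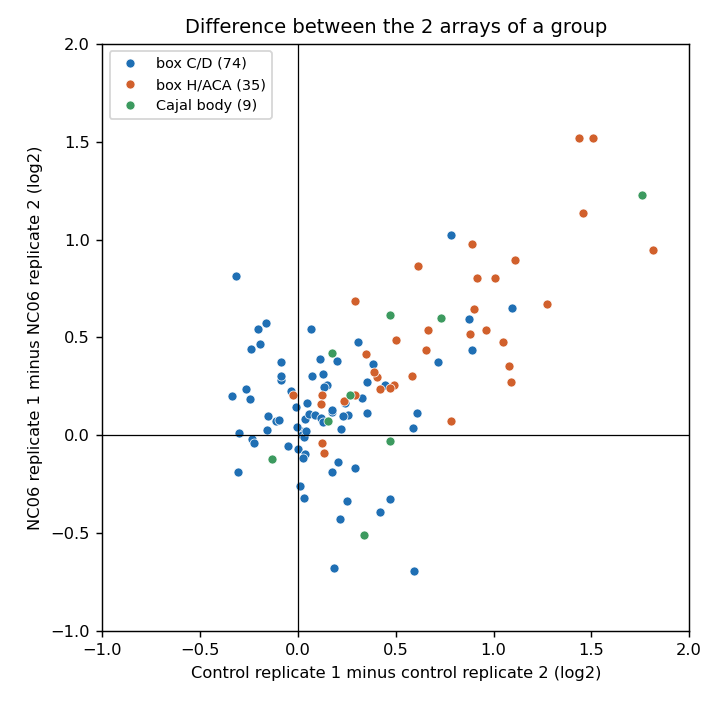
Difference between the 2 arrays of the control group (horizontal axis, log2) and of the NC06 group (vertical axis, log2) for each member; each point is 1 RNA, coloured by class. Box H/ACA RNAs lie mostly in the upper right, with 32 of 35 positive on both axes, while box C/D RNAs scatter around the origin, with 36 of 74 positive on both.

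The gap was also set against the length of the gene in RefSeq, in a split chosen after the values were seen. The 5 box C/D RNAs of at least 100 bases, Snord15a, Snord15b, Snord17, Snord22 and Snord118, had a median gap of 0.43 log2 between the NC06 arrays and of 0.78 between the control arrays. The 66 shorter ones had median gaps of 0.10 and 0.081. Snord15a and Snord15b did not share the gap: Snord15a read 8.93 and 8.92 in NC06 cells, against 8.87 and 8.85 in control cells. The median length was 122 bases for box H/ACA and 68 for box C/D genes, so length and class cannot be told apart for most members. The median change was -0.28 log2 for the 5 longer and 0.14 for the 66 shorter box C/D RNAs. Among box H/ACA RNAs the 31 genes of at least 100 bases had median gaps of 0.48 and 0.67 and the 4 shorter ones gaps of 0.21 and 0.35. Their changes ran the other way, with medians of -0.19 for the longer and -0.31 for the shorter genes.

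Set side by side, the median signal of the box C/D class exceeded that of the box H/ACA class by 0.71 and 0.89 log2 on the NC06 arrays, against 0.33 and 0.55 on the control arrays. The difference between the class medians of change was 0.32 log2. It was 0.39 within the first pair of same-numbered arrays and 0.22 within the second. Leaving out single arrays gave 0.0002 without control replicate 1, 0.67 without control replicate 2, 0.55 without NC06 replicate 1 and 0.16 without NC06 replicate 2. Unlike the pairs, these settings compare groups that are unequal in arrays numbered 1 and 2. No test was made of this difference, since it is a score over members chosen with earlier results known. Restricted to members with a mean signal from 8 to 10 log2, the medians were 0.11 over 29 box C/D RNAs and -0.20 over 17 box H/ACA RNAs. Restricted to probe sets that the platform does not pair with another gene, they were 0.11 over 57 and -0.20 over 26.

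**Figure D4:**
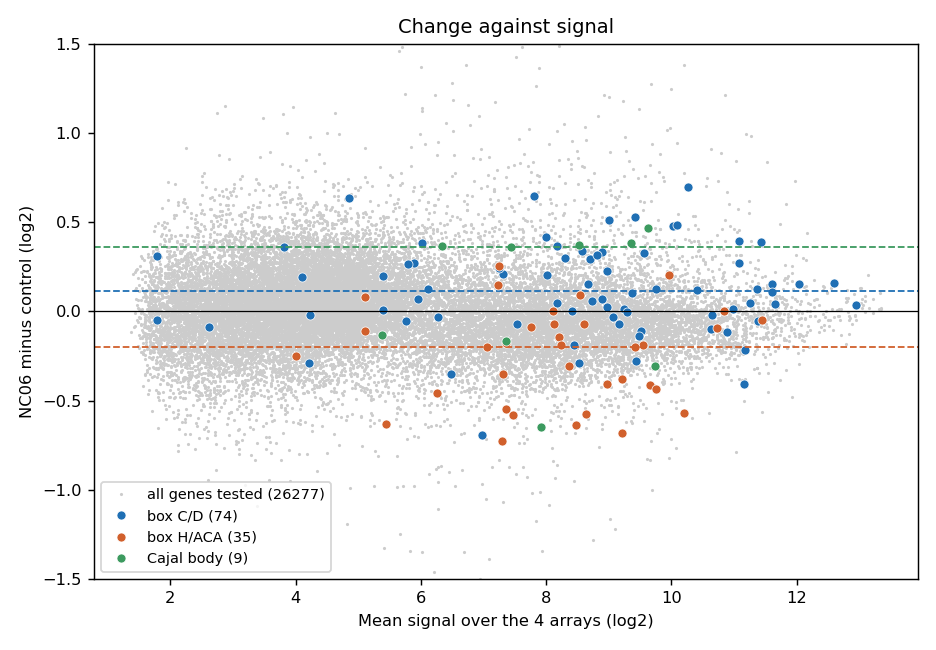
Change, NC06 minus control in log2, against the mean signal over the 4 arrays in log2; grey points are all 26277 genes tested and coloured points the members, with dashed lines at the class medians. The box C/D line lies at 0.11 and the box H/ACA line at -0.20, and members of both classes spread over most of the signal range; 27 genes beyond 1.5 log2 fall outside the plot.

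The contrast was also looked at within single host genes. A host was taken as a gene whose span in the RefSeq table holds the member. Of 4 hosts with both classes and a single tested host gene, 3 had the box C/D member above the box H/ACA members. In Rps12, Snord100 had a change of 0.03 log2 and Snora33 one of -0.73 (SE 0.42). The platform lists the probe set of Snord100 under Snora33, so the contrast in this host rests on the deposited names. In Ncl, Snord82 had 0.16 and Snora75 -0.57. When 1 array was left out, Snora33 ranged from -1.19 to -0.27 and Snora75 from -1.06 to -0.08. In Snhg12, Snord99 had 0.39 (SE 0.13) and the mean of Snora16a, Snora44 and Snora61 was -0.35. In Eif4a2 the order was the other way, with 0.027 for Snord2 and 0.15 for Snora81. The hosts themselves had changes of -0.095 for Rps12, -0.24 for Ncl, 0.045 for Snhg12 and -0.17 for Eif4a2, and none passed.

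Snhg12 is a non-coding host gene, and it held the most members of these 4 hosts. Snord99 read 11.76 and 11.50 log2 in NC06 cells, against 11.31 and 11.16 in control cells. Snora44 read 9.72 and 9.18, against 10.34 and 9.38, and Snora16a read 9.80 and 9.28, against 10.41 and 9.53. Snord99 separated the groups upwards, while for Snora44 and Snora16a NC06 replicate 1 lay above control replicate 2. The start of Snhg12 is shown as an example of a host promoter, since many snoRNA hosts are known to begin within a run of pyrimidines, the terminal oligopyrimidine motif. It is given from RefSeq, build GRCm38.p6, at chr4:132308648-132308687 on the plus strand, with 30 bases before the first transcribed base and 10 from it on. Capitals mark the run of 9 C or T letters that holds the first base.
Snhg12 start: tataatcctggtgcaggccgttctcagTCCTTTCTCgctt
A run of at least 6 C or T letters over the annotated first base, read on the transcribed strand, was found in 8 of 60 hosts with a start in the table, or 13.3%, against 8.48% of all genes there. Among the 4 hosts of both classes only Snhg12 had it. The run was 0 letters in Rps12, 1 in Ncl and 0 in Eif4a2.

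Members and hosts did not move together as a rule. Of 90 members with a single tested host, 35 had a change of the same sign as the host, 19 of 52 box C/D and 13 of 31 box H/ACA members among them. The median change of the 75 host genes was -0.10 log2. At an unadjusted p under 0.05, 5 hosts were lower, against 7.52% of all genes, and 0 were higher. They included Ncl, Nop53 and Tbrg4, with changes of -0.24, -0.29 and -0.24 log2. The arrays of hosts lay close together, with a median gap in size of 0.058 log2 between the control arrays for box C/D hosts and 0.060 for box H/ACA hosts. Mature snoRNAs and spliced host transcripts are separate molecules, and their stabilities were not measured.

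The 9 Cajal body RNAs split. The brightest by mean signal was Scarna10, followed by Scarna17, Scarna2, Scarna9 and Scarna6. Scarna17 read 9.79 and 9.92 log2 in NC06 cells, against 9.32 and 9.45 in control cells. Scarna2 read 9.58 and 9.51, against 9.24 and 9.08, and Scarna9 read 8.91 and 8.49, against 8.42 and 8.24. In these 3, whose human counterparts are box C/D-type RNAs, the groups did not overlap. Their changes were 0.47 (SE 0.096), 0.38 (SE 0.094) and 0.37 (SE 0.17) log2, at limma adjusted p-values of 0.214, 0.243 and 0.393. Scarna3b, whose human counterpart is of the H/ACA type, read 7.72 and 7.52, against 7.39 and 7.13, also with its groups apart. Scarna3a, of the same type, had a change of 0.37 with overlapping groups. In all, 4 of the 9 separated the groups upwards, against 23.3% of all genes.

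Scarna10 and Scarna6, whose human counterparts U85 and U88 carry both kinds of domain, had wide gaps between arrays. Scarna6 read 8.21 and 6.98 log2 in NC06 cells, against 9.12 and 7.36 in control cells. Scarna10 read 9.89 and 9.29, against 10.26 and 9.53. In both, replicate 1 was the higher array of each group and the groups overlapped. Their changes of -0.65 (SE 0.73) and -0.31 (SE 0.33) were 0.23 and 0.057 without control replicate 1. The class median of 0.36 log2 was 0.086 with NC06 replicate 1 left out and 0.13 with control replicate 2 left out, and 2 of the 9, Scarna17 and Scarna2, had an unadjusted p under 0.05 on the higher side. That count was 1 when either control replicate 2 or NC06 replicate 1 was left out.

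The number of calls depended on the fit. With the dim genes left out of the fit, 4 members passed an adjusted p of 0.05 in limma, all of them higher: Snord111 (adjusted p 0.0265), Snord55 (0.035), Snord88c (0.0437) and Scarna17 (0.0448). In that fit 3.54% of genes were called higher and 2.98% lower. With a variance prior that both follows the signal and is robust to outlying genes, which were not varied apart, 10 members passed, all higher, 8 of them box C/D and 2 Cajal body RNAs. There the background was 2.43% higher and 3.08% lower. The 10 were the 4 above with Scarna2, Snord34, Snord35a, Snord53, Snord57 and Snord99. No box H/ACA RNA passed in either of these fits. By the p-values of the authors' deposited table, 6 box C/D RNAs of 74 were higher at a p under 0.05, 1 was lower, and no box H/ACA RNA of the 35 reached it. The shares over all probe sets with a p there were 5.98% higher and 6.82% lower, so the box C/D count was near the background, and 0 probe sets passed after adjustment.

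RNA signals of the genes for proteins that bind and assemble these RNAs lay on the lower side. Of 31 measured genes of snoRNP proteins, assembly factors, Cajal body proteins, the U3 particle and enzymes that trim RNA ends, 31 had a negative change, or 29 after quantile normalization. The median was -0.20 log2, against 0.002 for all genes and -0.024 for the brighter ones. Among the 13139 brighter genes, to which all 31 belong, 7254 had a negative change. By limma 0 passed the adjusted threshold. At an unadjusted p under 0.05, 13 were lower, against 7.52% of all genes, and 0 were higher, against 7.79%. Of the 13139 brighter genes 1479 were lower and 1222 higher at that p. Both the choice of this list and its direction were made with earlier results of these arrays known.

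The core protein genes of box H/ACA particles were led by Gar1. It read 8.95 and 8.87 log2 in NC06 cells, against 9.22 and 9.17 in control cells, a change of -0.28 (SE 0.081). Dkc1, the pseudouridine synthase dyskerin, was at -0.15 (SE 0.078), Nhp2 at -0.14 and Nop10 at -0.13. For box C/D particles Nop58 was at -0.22 (SE 0.092), Snu13 at -0.15 and Nop56 at -0.051, and fibrillarin (Fbl) was not analysed here. The core protein genes of both particles thus lay on the lower side.

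Among assembly factors Ruvbl2, an ATPase of the R2TP complex, read 9.69 and 9.67 log2 in NC06 cells, against 10.07 and 10.05 in control cells. The groups stood apart, at -0.38 (SE 0.075, limma adjusted p 0.21). Nolc1, the chaperone Nopp140 of nucleoli and Cajal bodies, was at -0.32 (SE 0.082), and Naf1, an assembly factor of box H/ACA particles, at -0.27 (SE 0.076). In the U3 particle Rrp9 was at -0.41 (SE 0.080), Imp3 at -0.26 and Utp3 at -0.21. Of the Cajal body genes Smn1 and Wrap53, which carries RNAs to that body, were at -0.31 and -0.32, and coilin (Coil) was at -0.17. Parn, a deadenylase known in human cells to trim box H/ACA RNAs, was at -0.37 (SE 0.094), and the exosome nuclease Exosc10 at -0.22.

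**Figure D5:**
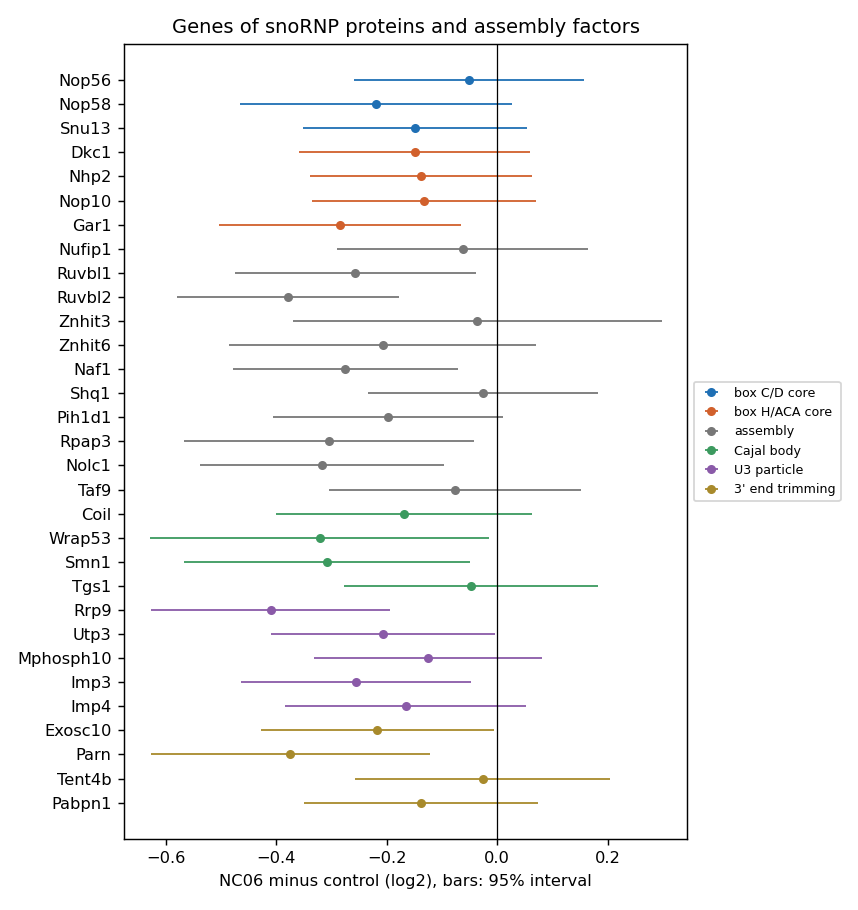
Change, NC06 minus control in log2, of 31 genes of snoRNP proteins and assembly factors; points are the changes and bars their 95% intervals from limma, coloured by role. All 31 points lie below 0, between -0.41 and -0.025, and the intervals of 18 reach past 0.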

How the data were processed

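Expression was measured on 4 whole-transcript arrays, 2 of NC06 and 2 of control cells, grouped by sample titles. The log2 values of 41345 probe sets were used as the authors deposited them. The submitters' processing notes name Partek, and no source used here gives the background correction, normalization or summarization. A table the authors deposited adds a ratio (fold) for 31873 probe sets and a p-value for 31867. It also gives a ratio within each same-numbered pair of arrays. On the log2 scale its ratios equalled the value table's differences within 8.8e-05, which settles scale and direction.

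Members were named by the symbol in the authors' deposited table, or else by a single platform gene. 135 probe sets gave 118 genes, with the highest mean over the 4 arrays used where a gene had several. The platform lists another gene on 29 of them. Left out were 5 probe sets that the platform lists under several genes including a snoRNA and the deposited table under no member. The platform names a member on 2 of them. Other genes were named from a single platform gene, or from the deposited table where RefSeq (GRCm38.p6, names and neighbours only) held the symbol. RefSeq held 115 members, 111 within another gene's span. The table gives no strand, so hosts were matched by span alone. Some host genes are not reported here.

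All 26277 genes were fitted with limma 3.58.1 in R 4.3.3 (lmFit and eBayes, two-sided, 2 residual and 2.36 prior degrees of freedom), with Benjamini-Hochberg adjustment and a threshold of 0.05. The fit was tested on simulated data. Python 3.11.15 with pandas 2.3.3 made the tables. Values are mean differences, errors are moderated standard errors, and intervals are 95% intervals. A gene was dim where its brighter group mean lay below the median of all tested genes.

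Members named were the 5 brightest of each class, the 10 highest and 10 lowest by moderated t, and the members of 5 groups by role or host; snoRNP genes were named by smallest p within a subgroup. Further examples were picked with their values known. The members and lists were chosen with earlier results of these data known. Alternatives were other normalizations, signal filters, variance priors, probe set choices, a block for the replicate number, removal of 1 array at a time and the authors' deposited values. Same-numbered arrays did not deviate together over all genes (correlation 0.034). Over the 118 members the correlation was 0.60, over box H/ACA RNAs 0.76 and over box C/D RNAs 0.091. With 2 pairs the numbers were not taken to pair the samples, so the standard errors of box H/ACA RNAs include the gap that both groups share.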

Additional observations from a re-analysis of the deposited data

Results flagged for a closer look

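Probe sets that the platform lists under several genes were kept out of the comparisons unless the authors' deposited table named them as a member. Of the 5 left out that name a snoRNA, 2 had both NC06 arrays above both control arrays, against 23.3% of all genes. The probe set listed under Snord1c and Snord1b read 9.94 and 9.45 log2 in NC06 cells, against 9.04 and 9.26 in control cells, a difference of 0.54. The members named Snord1c and Snord1b had changes of 0.53 (SE 0.19) and 0.48 (SE 0.21). The platform gives the probe set of the member Snord1c the same 2 names. It read 9.91 and 9.44, against 9.05 and 9.24, so both probe sets may read the same RNA. The probe set listed under Snhg16 and Snord1a read 6.72 and 6.87, against 6.61 and 6.63, a difference of 0.17. Snord1a itself was not a member. The probe set listed under Snora17 and Snhg7 went the other way, at 8.24 and 8.05, against 9.12 and 8.25, a difference of -0.54. Both its NC06 arrays lay below both control arrays, narrowly so for the closest 2, as in 24.4% of all genes. The remaining 2 did not separate the groups.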

How the results depend on the processing

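All 118 members had an adjusted p above 0.05 under quantile normalization, centring on array medians, a filter on the lowest quartile, the mean or dimmest probe set, the replicate block, every left-out array and the authors' deposited p-values. With genes below the median signal left out, 4 members, 4 named members and 2 snoRNP genes passed. With the trend and robust prior 10 members, 9 named members, 8 snoRNP genes and 5 hosts passed. Over all genes the count of 0 became 13 after quantile normalization, 28 after median centring, 135 without the lowest quartile, 856 without genes below the median signal, 1448 with the trend and robust prior and 2 with the mean or the dimmest probe set. At an adjusted p under 0.10 it was 117 genes and 0 members, at an unadjusted p under 0.05 it was 4022 and 18, and for changes of at least 0.5 log2 without overlap 861 and 6.

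At an unadjusted p under 0.05 the trend and robust prior gave 23 higher and 2 lower box C/D, 4 lower box H/ACA and 4 higher Cajal body RNAs, where 8.27% of all genes were higher and 11.0% lower. Median centring gave 2 lower box C/D RNAs (11.0% of all genes), and without genes below the median signal 2 box H/ACA RNAs were lower (17.3%). The authors' deposited p-values gave 6 higher box C/D and 0 lower box H/ACA RNAs, and members not paired with another gene, an alternative added after seeing the data, gave 0 lower box H/ACA RNAs. With the replicate block, 3 box C/D RNAs were lower, 1 box H/ACA RNA was higher and 9 lower. Of the Cajal body RNAs 5 were higher and 2 lower. The shares of all genes with the block were 7.04% higher and 6.28% lower. The authors' deposited table gives a ratio within each same-numbered pair, but no source used here says what the arrays of a pair share. The block changed no adjusted call.

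Leaving out each array gave 4 to 15 higher and 0 to 5 lower box C/D RNAs, 0 to 10 lower box H/ACA RNAs, and 1 to 3 higher and 0 to 1 lower Cajal body RNAs, against 5.15% to 5.96% of all genes higher and 4.39% to 5.39% lower. The median change ranged from 0.046 to 0.15 log2 for box C/D and from -0.63 to 0.15 for box H/ACA, and their difference from 0.0002 to 0.67. Within same-numbered pairs, with 1 array of each group, the difference was 0.39 and 0.22. The cause was not tested.

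Of 42 named members, 28 kept their sign in every alternative. The lowest and highest changes without 1 array were -0.67 and 0.057 for Scarna10, -1.53 and 0.23 for Scarna6, -0.33 and 0.34 for Snora21, -0.088 and 0.50 for Snora23, -0.25 and 0.15 for Snora62, -0.21 and 0.11 for Snord107, -0.45 and 0.23 for Snord13, -0.31 and 0.12 for Snord14e, -0.92 and 0.10 for Snord22, -0.085 and 0.16 for Snord60, and -0.094 and 0.72 for Snord64. Snord47 was -0.014 without control replicate 1. Median centring gave Snora21 -0.052, Snord100 -0.020 and Snord60 -0.016, and quantile normalization gave Snord100 -0.00295. With platform names first, added after seeing the data, Snora33 took the probe set of Snord100 and was 0.035. Signal over background limits the 8 dim members most.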
